A study of Mus musculus with 6 samples.

Results

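Phagocyte genes were followed in young and old mouse cochleas as a group that holds the lipid-sensing receptor Trem2 and its signalling adaptor Tyrobp, the genes Apoe, Gpnmb, Itgax, Clec7a, Axl and Lgals3 that mark phagocytes loaded with lipid and debris, and the immunoglobulin receptor genes Fcgr3 and Fcer1g. The 10 genes were chosen by name with earlier results of these data known, so the number of them called is no independent evidence. Transcripts of 9 of them were in the table used here, which covers 25419 genes, and all 9 were among the 19465 genes tested. No transcript of Clec7a, a receptor for fungal beta-glucan, was in that table, and its level was not analysed here. Both groups were untreated C57BL/6 mice, a strain that loses hearing early in life. The young mice were 1 month old and the old mice were 12 months old. Each group had 3 samples, each sample mixed the tissue of 3 mice, and the tissue was the basilar membrane dissected out of the cochlea. Pooled animals give no value for a single mouse, and the p-values below measure the spread between these pools.

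Phagocytes carry receptors for dying cells, lipids and antibody-coated particles. Several of these receptors cannot signal alone: Trem2 relies on the adaptor Tyrobp (also called DAP12), and the activating Fc receptor Fcgr3 relies on the Fc receptor gamma chain, Fcer1g. Both adaptors carry an immunoreceptor tyrosine-based activation motif (ITAM), which recruits the kinase Syk. Downstream of Trem2, brain microglia near plaques and macrophages of fat tissue are known to switch on a shared set of genes that includes Apoe, Gpnmb, Itgax, Axl and Lgals3. In the cochlea, resident macrophages sit along the basilar membrane, the nerve and the stria vascularis.

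The level of each gene was the sum of the FPKM values of its transcripts, where FPKM is the number of fragments scaled by transcript length and by library size, a scale that corrects for length and so allows genes to be compared. For each of the 9 genes the lowest old sample exceeded the highest young one, and all 9 were higher in old cochleas at an adjusted p below 0.05 (limma on log2(FPKM + 0.1), Benjamini-Hochberg over all genes tested). Over all genes tested, 9.45% were called, 5.65% higher and 3.81% lower, and 17.6% had every old sample above every young sample. At an unadjusted p below 0.05, 14.6% of all genes were higher. The log2 change exceeded 1 in 6 of the 9 genes, against 7.04% of all genes. The exact permutation test of a single gene gave p = 0.1 for each of the 9, the smallest value that 3 samples against 3 allow. Of the 9 calls, 1 was left without the second old sample and 2 without the third old sample. Without the first old sample 5 were left. Without the second young sample 6 were left, and 8 without either of the other young samples. In the fit without a variance trend 3 were left, Trem2, Apoe and Itgax. The change of each gene stayed above 0 in all of these fits.

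**Figure D1:**
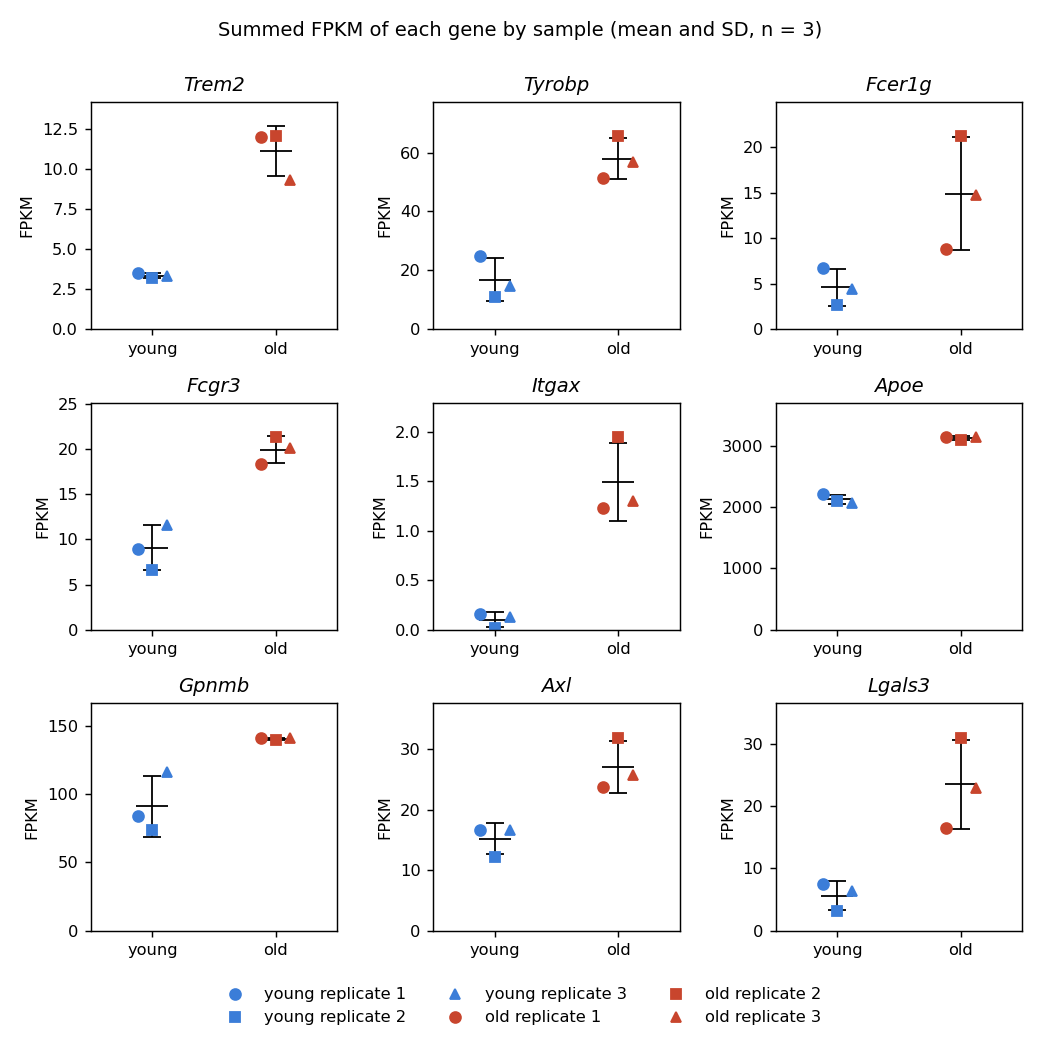
FPKM of the 9 genes in each of the 3 young and 3 old samples, with the mean and SD of each group. Each gene has its own linear axis from 0. Apoe lies near 2126 in young and 3124 in old cochleas, Itgax near 0.103 and 1.49, and no gene has overlapping groups.

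Mean levels ran from 0.103 to 2126 FPKM in young and from 1.49 to 3124 FPKM in old cochleas. In young cochleas Apoe was followed by Gpnmb, Tyrobp, Axl, Fcgr3, Lgals3, Fcer1g, Trem2 and Itgax. The young ranges of the neighbours Tyrobp and Axl overlapped, as did those of Fcgr3 and Lgals3, of Lgals3 and Fcer1g, and of Fcer1g and Trem2, so their order was not resolved. In old cochleas Lgals3 stood before Fcgr3, the order being otherwise the same, and the ranges of Axl, Lgals3, Fcgr3, Fcer1g and Trem2 overlapped from each neighbour to the next. Among the old samples the second was highest for 7 of the 9 genes, and among the young samples the second was lowest for 8.

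Trem2, a receptor for lipids, apolipoproteins and dying cells, lies on chromosome 17 (GRCm38, 48346401 to 48354147, plus strand). Its level was 3.49, 3.18 and 3.32 FPKM in the young samples and 12.0, 12.0 and 9.29 FPKM in the old samples. The young samples were close to each other and the lowest old sample was far above them. The mean rose from 3.33 ± 0.157 to 11.1 ± 1.57 FPKM (SD, n = 3 each), a 3.34-fold difference of means, and the fitted log2 change was 1.70 (SE 0.14, 95% confidence interval 1.37 to 2.03, limma adjusted p = 0.0054). These levels rest on an estimated 32.8 to 36.7 fragments per young sample and 99.3 to 152 per old sample. Trem2 was called in each of the 16 alternative analyses, with a log2 change between 1.48 and 1.82.

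Tyrobp, the ITAM adaptor that Trem2 and several other receptors share, lies on chromosome 7 (30413760 to 30417585, plus strand). Its level was 24.99, 10.7 and 14.7 FPKM in the young samples and 51.4, 65.5 and 57.0 FPKM in the old samples. The first young sample was the highest of its group but stayed well under the lowest old sample. On average it rose from 16.8 ± 7.35 to 57.9 ± 7.09 FPKM, a 3.44-fold difference, and limma gave a log2 change of 1.86 ± 0.28 (SE, adjusted p = 0.0162). Without the second old sample, or without the third, the adjusted p of Tyrobp was above the threshold. The number of Trem2 FPKM per Tyrobp FPKM was 0.140, 0.295 and 0.225 in the young and 0.233, 0.184 and 0.163 in the old samples, so the ranges of receptor over adaptor overlapped (exact permutation p = 0.8, two-sided).

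The RefSeq start region of 3 of the receptor genes is shown because letters known as the core of PU.1 sites or as AP-1 sites stand close to the start there. PU.1 is the lineage factor of macrophages, and AP-1 is a family of factors induced by stimulation. The sequences are the 150 bases before the annotated start, 5′ to 3′ on the gene's own strand (RefSeq, GRCm38.p6), and capitals mark TTCCTC, the reverse complement of GAGGAA, and TGANTCA.
Trem2, chr17:48346251-48346400, plus strand: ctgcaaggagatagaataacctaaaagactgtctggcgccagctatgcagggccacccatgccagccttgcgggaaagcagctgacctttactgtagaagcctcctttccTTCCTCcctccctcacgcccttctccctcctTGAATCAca
Fcgr3, chr1:171059404-171059553, minus strand: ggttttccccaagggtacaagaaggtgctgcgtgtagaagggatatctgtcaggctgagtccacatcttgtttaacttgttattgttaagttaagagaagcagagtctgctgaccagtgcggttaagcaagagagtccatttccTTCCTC
Itgax, chr7:128129400-128129549, plus strand: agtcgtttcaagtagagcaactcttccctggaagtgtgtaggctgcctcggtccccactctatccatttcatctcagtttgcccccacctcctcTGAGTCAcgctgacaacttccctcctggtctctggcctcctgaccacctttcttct
The Trem2 stretch lies outside any annotated gene, the Fcgr3 stretch lies in an intron of a longer Fcgr3 transcript, and the Itgax stretch reaches into the first exon of the GENCODE model. Searching both strands of the 250 bases before the start, GAGGAA was found for Apoe, Axl, Clec7a, Fcgr3 and Trem2, which is 5 of the 9 listed genes with a RefSeq start region, against 25.9% of 27025 genes. TGANTCA was found for 2 of the 9, Itgax and Trem2, against 7.82% of genes. CACGTG, the E-box of the lysosomal factors Tfeb and Mitf, was found for 0 of the 9, against 6.86% of genes. These matches describe letters and not binding, which was not measured here.

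Fcgr3, the low-affinity activating receptor for immunoglobulin G, lies on chromosome 1 (171051174 to 171064935, minus strand). Its level was 8.99, 6.64 and 11.7 FPKM in the young samples and 18.3, 21.3 and 20.1 FPKM in the old samples. The old samples were close to each other and above the young range. The mean rose from 9.09 ± 2.51 to 19.9 ± 1.51 FPKM, a 2.19-fold difference, and limma gave a log2 change of 1.16 ± 0.19 (SE, adjusted p = 0.0205). The call was lost when any of the 3 old samples was left out (adjusted p = 0.0569 without the first).

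Fcer1g, the gamma chain that carries the ITAM for Fcgr3 and for the high-affinity immunoglobulin E receptor, lies on the same chromosome (171229572 to 171234365, minus strand). Its level was 6.67, 2.63 and 4.40 FPKM in the young samples and 8.84, 21.2 and 14.7 FPKM in the old samples. The spread within each group was wide, and the lowest old sample lay only a little above the highest young one. On average it rose from 4.57 ± 2.03 to 14.9 ± 6.16 FPKM, a 3.26-fold difference, and limma gave a log2 change of 1.69 ± 0.40 (SE, 95% interval 0.77 to 2.62, adjusted p = 0.0422). This call was lost without any of the old samples, without the second or the third young sample, in the fit with no filter on low values (adjusted p = 0.0675) and with only the most abundant transcript (adjusted p = 0.0527). Fcgr3 FPKM per Fcer1g FPKM was 1.35, 2.53 and 2.65 in the young and 2.07, 1.01 and 1.37 in the old samples, again with overlap (exact permutation p = 0.3).

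The other Fc receptor genes gave a measure of whether the activating receptors moved with their inhibitory counterpart. Of 8 other Fc receptor genes, 6 were tested, 3 were called higher and 0 lower. Fcgr2b, the inhibitory receptor for immunoglobulin G, rose from 4.93 ± 0.690 to 10.2 ± 2.91 FPKM (log2 change 1.00, limma adjusted p = 0.0309). Fcgr4, a second activating receptor, rose from 0.755 ± 0.425 to 3.45 ± 0.809 FPKM (log2 change 2.14, adjusted p = 0.0211), and Fcrls, an Fc receptor-like gene of macrophages and microglia, rose from 4.76 ± 1.63 to 12.9 ± 3.15 FPKM (adjusted p = 0.0253). Fcgrt, the neonatal Fc receptor that recycles immunoglobulin G and albumin in many cell types, stood at 100.1 ± 5.15 and 104 ± 7.09 FPKM (adjusted p = 0.670). Fcgr1, the high-affinity receptor, was at 0.740 ± 0.297 and 2.91 ± 3.02 FPKM and did not pass (adjusted p = 0.219).

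The ratio of the activating Fcgr3 to the inhibitory Fcgr2b was 1.57, 1.45 and 2.59 in the young and 2.08, 1.58 and 2.45 in the old samples, with a mean of 1.87 ± 0.627 and 2.04 ± 0.440 (exact permutation p = 0.7). The ratio of Fcgr4 to Fcgr2b was 0.218, 0.114 and 0.111 in the young and 0.338, 0.324 and 0.364 in the old samples, and these groups did not overlap (exact permutation p = 0.1, the smallest possible). The mRNA of Fcgr3 and that of Fcgr2b share sequence: 12.8% of the 50-base stretches of the main Fcgr3 transcript also occur in Fcgr2b, though none of its 150-base stretches do, so short overlaps may be split between them. The ratios of partner genes, 6 in all, were chosen after the values had been seen.

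Itgax, the integrin alpha chain CD11c, which pairs with the beta chain Itgb2 to bind complement-coated particles, lies on chromosome 7 (128129547 to 128150657, plus strand). Its level was 0.161, 0.0192 and 0.128 FPKM in the young samples and 1.23, 1.95 and 1.30 FPKM in the old samples. The young values rest on an estimated 5.89, 0.988 and 6.01 fragments and the old ones on 36.3, 113.5 and 58.0, so the young level is known only roughly. The log2 change was 3.02 (SE 0.43, 95% interval 2.01 to 4.03, limma adjusted p = 0.0145). Its size depends on the constant added before the logarithm. It was the largest of the 9 genes with 0.1 FPKM, but with 1 FPKM it was 1.17, under those of Lgals3 (1.91), Tyrobp (1.80), Fcer1g (1.503) and Trem2 (1.48). With 0.01 FPKM it was 4.06, and it was called in each case. The call was lost without the second or the third old sample (adjusted p = 0.0506 without the third).

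Of the other integrin chains of leukocytes, 3 of 4 were tested and 2 called higher. Itgb2 rose from 1.36 ± 0.497 to 5.50 ± 1.55 FPKM (log2 change 1.95, limma adjusted p = 0.0166). Itgam, the alpha chain CD11b of most myeloid cells, rose from 1.34 ± 0.503 to 4.28 ± 0.963 FPKM (log2 change 1.64, adjusted p = 0.0224). Itgal, a further alpha chain, was at 0.303 ± 0.155 and 0.577 ± 0.135 FPKM, with every old sample above every young one, but did not pass (adjusted p = 0.278). Itgax FPKM per Itgam FPKM was 0.0843, 0.0170 and 0.131 in the young and 0.321, 0.361 and 0.357 in the old samples, without overlap (exact permutation p = 0.1). Itgax shares 9.61% of its 50-base stretches and 1.00% of its 150-base stretches with Itgad, whose mean level was 0.0211 FPKM in young and 0 in old cochleas.

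Apoe, the main lipid carrier of glia and macrophages, also made by other cell types, lies on chromosome 7 (19696109 to 19699188, minus strand). Its level was 2211, 2096 and 2073 FPKM in the young samples and 3142, 3090.2 and 3141 FPKM in the old samples. The samples of each group were within a few percent of each other, and the groups were far apart on that scale. The group mean went up from 2126 ± 73.7 to 3124 ± 29.7 FPKM, a 1.47-fold difference, and limma gave a log2 change of 0.56 ± 0.07 (SE, 95% interval 0.40 to 0.72, adjusted p = 0.0115). Quantile normalization, which forces the same distribution on every sample, lowered the change to 0.33, still with a call. Without the second old sample the call of Apoe was lost (adjusted p = 0.0564), the only one of its 16 alternatives in which it was.

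Gpnmb, a transmembrane glycoprotein of lipid-laden macrophages, osteoclasts and pigment cells, lies on chromosome 6 (49036546 to 49070929, plus strand). Its level was 83.9, 73.5 and 116 FPKM in the young samples and 141, 139.5 and 141 FPKM in the old samples. The third young sample stood well above the other young samples, while the old samples were nearly equal. On average it rose from 91.2 ± 22.3 to 141 ± 0.914 FPKM, a 1.54-fold difference, and limma gave a log2 change of 0.65 ± 0.15 (SE, 95% interval 0.29 to 1.01, adjusted p = 0.0426). This was the highest adjusted p of the 9, and the call was lost without any of the old samples, without the first or the second young sample (adjusted p = 0.106 and 0.103), with quantile normalization, with no filter, and with only the most abundant transcript in place of the sum (adjusted p = 0.0524). Leaving out the third young sample kept it.

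Pigment cells and osteoclasts also carry Gpnmb, so their markers are given beside it. The 6 melanocyte markers summed to 1000.4, 768 and 1224 FPKM in the young and 1184, 1092 and 1182 FPKM in the old samples. The third young sample, highest of its group for Gpnmb, was highest of all 6 samples for this sum. Of the 6 markers, 0 were called by limma, and Mlana, a melanosome protein, stood at 128 ± 40.7 and 191 ± 17.98 FPKM (adjusted p = 0.101). The 7 osteoclast markers summed to 19.6 to 29.6 FPKM in young and 19.5 to 19.8 FPKM in old samples, with 0 of 4 tested genes called. Ctsk, the collagen-degrading cathepsin K, was at 21.1 ± 3.77 and 17.1 ± 0.172 FPKM, and Acp5, the acid phosphatase TRAP, was at 2.86 ± 1.22 and 1.90 ± 0.274 FPKM, while Calcr and Ocstamp were under 0.1 FPKM in every sample. The part of pigment cells and osteoclasts in the Gpnmb change was not tested.

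Axl, a TAM receptor tyrosine kinase that binds dying cells through the bridging protein Gas6, lies on chromosome 7 (25757273 to 25788705, minus strand). Its level was 16.7, 12.2 and 16.7 FPKM in the young samples and 23.7, 31.9 and 25.7 FPKM in the old samples. The second sample was the extreme one in both groups, lowest among the young and highest among the old. The group mean went up from 15.2 ± 2.58 to 27.1 ± 4.26 FPKM, a 1.79-fold difference, and limma gave a log2 change of 0.84 ± 0.16 (SE, adjusted p = 0.0260). The call was lost without any of the old samples and without the second young sample (adjusted p = 0.0641).

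Among the other genes of the TAM system, 1 of 4 was called. Tyro3 rose from 17.7 ± 2.54 to 25.4 ± 2.63 FPKM (log2 change 0.52, limma adjusted p = 0.0461). Mertk, the TAM receptor of most tissue macrophages, was at 28.4 ± 2.51 and 30.6 ± 5.47 FPKM (adjusted p = 0.688). The bridging proteins Gas6, at 56.3 ± 2.85 and 58.9 ± 2.20 FPKM, and Pros1, at 25.2 ± 1.55 and 26.3 ± 0.465 FPKM, did not pass either.

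Lgals3, galectin-3, a sugar-binding protein recruited to damaged lysosomes, lies on chromosome 14 (47367751 to 47386160, plus strand). Its level was 7.42, 3.06 and 6.36 FPKM in the young samples and 16.5, 31.0 and 23.0 FPKM in the old samples. The lowest old sample was far above the highest young one. The mean rose from 5.61 ± 2.27 to 23.5 ± 7.23 FPKM, a 4.19-fold difference, and limma gave a log2 change of 2.09 ± 0.35 (SE, 95% interval 1.27 to 2.91, adjusted p = 0.0208). The call was lost without the second or the third old sample. Of 5 related genes 2 were called higher: Lgals3bp, a secreted galectin ligand, rose from 41.3 ± 9.75 to 110 ± 32.4 FPKM (log2 change 1.40), and Lgals9 rose from 2.61 ± 1.32 to 9.07 ± 3.37 FPKM (log2 change 1.81). Lgals1, the most abundant galectin here, was at 329.7 ± 55.5 and 438 ± 24.1 FPKM (adjusted p = 0.0709).

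**Figure D2:**
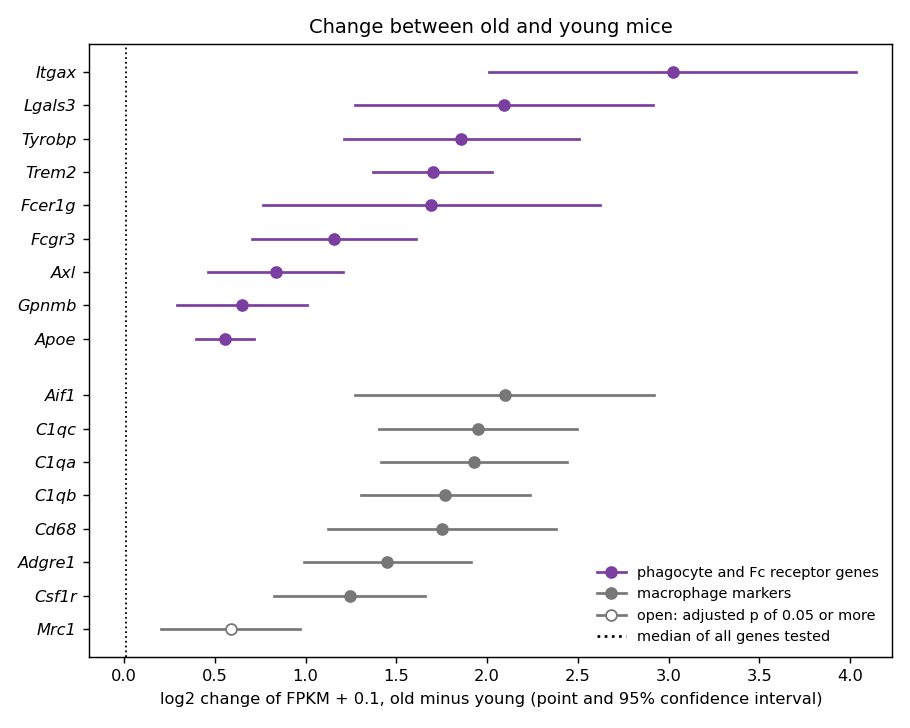
Log2 change of each of the 9 genes, old minus young on the log2(FPKM + 0.1) scale, with the 95% confidence interval from limma. The intervals run from 0.29 to 1.01 for Gpnmb up to 2.01 to 4.03 for Itgax, and all lie above 0.

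The deposited table holds 30 transcripts of the 9 genes, all annotated as protein coding, and 24 of them were tested. Of these, 3 were called higher and 0 lower after adjustment over all 38764 transcripts tested, where 0.549% were called higher. At an unadjusted p below 0.05, 14 of the 24 were higher, against 9.05% of all transcripts. The calls were the Trem2 transcript ENSMUST00000024791 (log2 change 1.58, limma adjusted p = 0.0279), the Apoe transcript ENSMUST00000174064 (adjusted p = 0.0364) and the Lgals3 transcript ENSMUST00000150290 (log2 change 2.52, adjusted p = 0.0416). None of these calls was left without the first or second young sample or without any of the old samples.

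The shares of single transcripts are given for Lgals3, Tyrobp and Trem2. The Lgals3 transcript ENSMUST00000150290 supplied 56.6%, 72.7% and 76.3% of the gene's FPKM in the young samples. In the old samples it supplied 92.6%, 92.4% and 91.4%, without overlap. A 368-nucleotide transcript, ENSMUST00000144794, made up 37.1% in young sample 1 and 15.7% in young sample 3. It was listed at 0 FPKM in the other samples. In young sample 2, ENSMUST00000142734 made up 27.3%. FPKM is scaled by length, so few fragments can give so short a transcript a large share. The young shares are thus known only roughly, and the part of the short transcript in the difference was not tested. For Tyrobp, the shorter transcript ENSMUST00000032800 (564 nucleotides) supplied 86.7% of the gene's FPKM in young and 59.6% in old cochleas, and ENSMUST00000207982 (597 nucleotides) supplied the rest. The share of the longer one was 21.0%, 2.63% and 16.2% in the young samples and 19.5%, 58.9% and 43.0% in the old samples, so the first old sample lay within the young range and the groups overlapped. The longer transcript did not pass the test (adjusted p = 0.133). Both transcripts share exons 2 to 4 and differ in the first and last exons, with starts at 30413788 for the shorter and 30413760 for the longer, so few fragments can tell them apart. A Trem2 transcript with an earlier start of exon 4, ENSMUST00000113237, supplied 3.83% of the gene in young and 11.1% in old cochleas, with overlap between the groups.

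**Figure D3:**
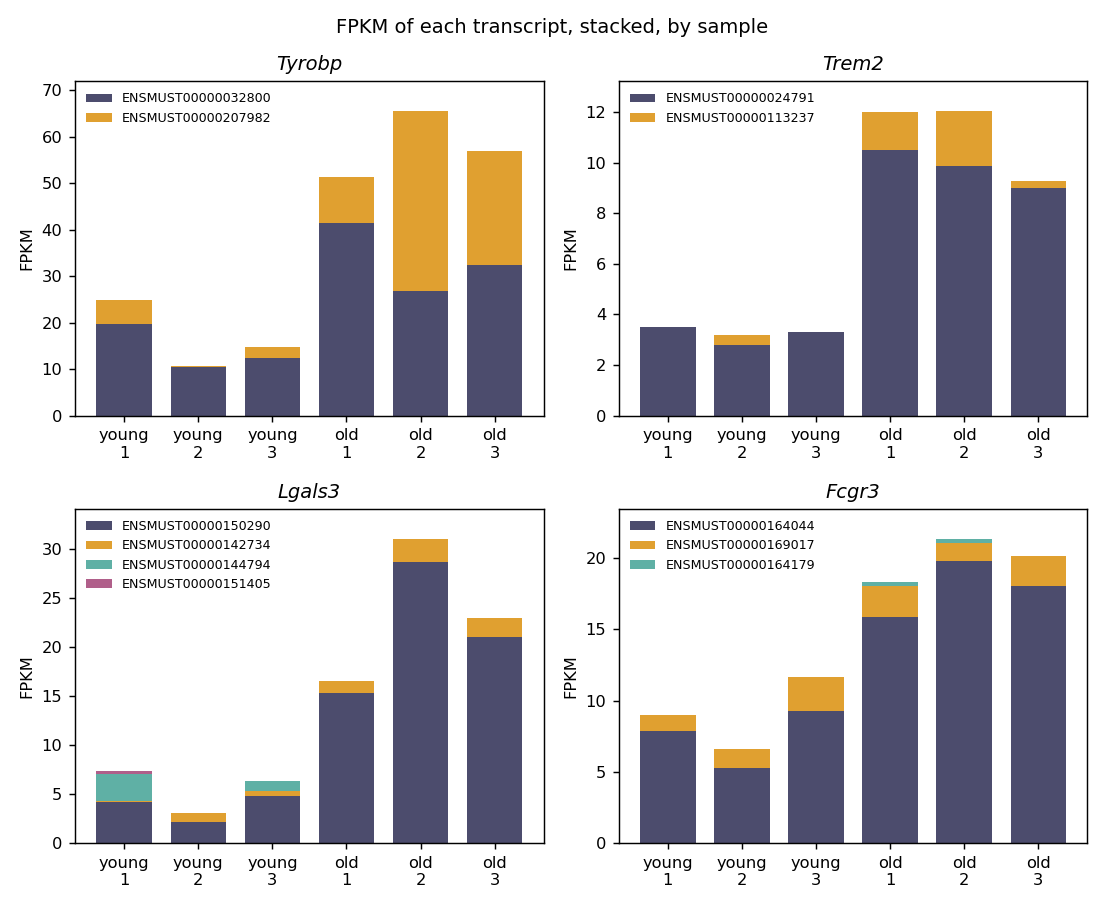
FPKM of the transcripts of Tyrobp, Trem2, Lgals3 and Fcgr3, stacked, in the 3 young and 3 old samples. For Tyrobp the longer transcript makes up on average 13.3% of the young and 40.4% of the old level, with overlapping groups.

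Bulk tissue cannot tell more phagocytes from more RNA per phagocyte. The levels are therefore given beside macrophage markers measured in the same samples. The 8 macrophage markers summed to 111, 66.4 and 74.3 FPKM in the young and 258, 328 and 256 FPKM in the old samples, with the second old sample highest and the second young sample lowest, as for most of the 9 genes. Of the 8 markers, 7 were called higher. C1qa, a complement component made by macrophages, rose from 27.1 ± 8.83 to 101 ± 15.2 FPKM, Csf1r, the growth factor receptor of the lineage, rose from 8.73 ± 2.22 to 20.4 ± 1.72 FPKM, and Mrc1, the mannose receptor, was at 3.91 ± 0.711 and 5.87 ± 0.280 FPKM without a call (limma adjusted p = 0.0663).

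The mean log2 level of the markers was higher in old samples by 1.60, and that mean was subtracted in each sample. Trem2, Fcer1g, Tyrobp, Lgals3 and Fcgr3 had a remaining log2 difference of 0.10, 0.10, 0.26, 0.50 and -0.44, with overlapping groups. Apoe, Gpnmb and Axl rose less than the markers, with differences of -1.04, -0.95 and -0.76 and every old sample below every young one. Itgax had a difference of 1.42 without overlap, from -5.13 ± 0.475 in young to -3.70 ± 0.136 in old samples. On this log2 scale the sign of the Itgax difference depended on the constant added. With 1 FPKM in place of 0.1, an alternative chosen after seeing the data, the difference was -0.27, again without overlap. That constant is far above the young Itgax mean of 0.103 FPKM. Without a constant, the Itgax mean rose 14.5-fold, to 1.49 FPKM. Aif1, the marker with the largest log2 change, rose from 1.63 to 7.53 FPKM. Itgax FPKM per Itgam FPKM, given above, was also higher in old samples without overlap. All these comparisons with the markers are a description without a test, and the markers were chosen with results of these data known.

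**Figure D4:**
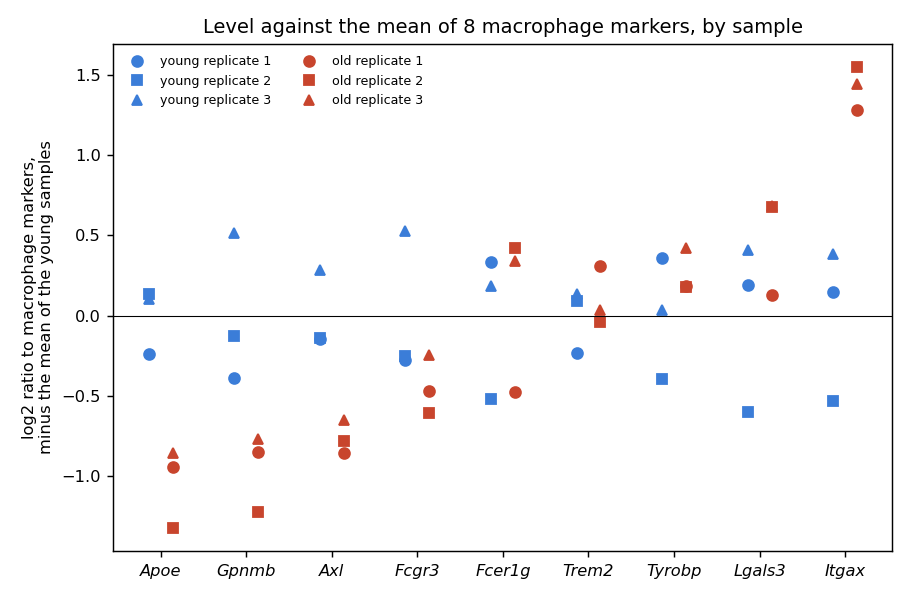
Log2 level of each gene minus the mean log2 level of the 8 macrophage markers in the same sample, for the 3 young and 3 old samples. The young mean of each gene was then subtracted, so the young samples centre on 0. With 0.1 FPKM added, old samples lie lower for Apoe, Gpnmb and Axl, higher for Itgax (lower, at -0.27, with 1 FPKM added), and overlap the young samples for the other 5 genes.

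Markers of other cell types moved in different ways, and their part in the results was not tested. The 7 neutrophil markers summed to 439.9 FPKM in the first young sample against 12.0 and 29.5 in the other young and 14.8 to 84.9 in the old samples, and 0 of 7 were called. The first young sample was also the highest young sample for 7 of the 9 genes, and without it 8 of the 9 calls were left. The 5 dendritic cell markers, a cell type that carries Itgax, summed to 8.44 to 11.7 FPKM in young and 5.53 to 6.95 FPKM in old samples. Of these Flt3, the growth factor receptor of the lineage, fell from 4.97 ± 1.63 to 2.01 ± 0.390 FPKM (limma adjusted p = 0.0414), and Zbtb46 was at 5.06 ± 0.0495 and 3.79 ± 0.714 FPKM without a call. These genes make up most of the sum. The low markers Clec9a, at 0.170 ± 0.0642 and 0.361 ± 0.0991 FPKM with every old sample above every young one, and Cd209a, at 0.106 ± 0.0968 and 0.185 ± 0.0984 FPKM, were not called either, and the median log2 change of the 4 tested was 0.06.

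Lymphocyte markers summed to 0.364 to 2.07 FPKM in young and 1.89 to 2.30 FPKM in old samples, with 1 of 5 tested genes, Cd3g, called higher. The 5 mast cell and basophil markers, of cells that use Fcer1g for the immunoglobulin E receptor, summed to at most 0.948 FPKM in any sample, and none reached the filter. Schwann cell and glial markers summed to 714 to 1139 FPKM in young and 611 to 638 FPKM in old samples, with 2 of 6 called lower, among them the myelin gene Pmp22. The 6 markers of the sensory epithelium were all present, as in the labelled tissue, and summed to 120 to 205 FPKM in young and 68.9 to 93.0 FPKM in old samples. Most of that sum is Ocm, at 135 ± 41.0 and 58.4 ± 11.4 FPKM. Slc26a5 and Ocm of outer hair cells were called lower, and 4 of the 6 were not called. In 3 of the 6 every old sample lay below every young one. Myo7a, at 6.13 ± 1.91 and 5.96 ± 0.567 FPKM, Otof and Sox2 had overlapping groups.

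The receptors that pair with Tyrobp or Fcer1g, taken with the related adaptor Hcst, numbered 13, of which 11 were tested, 6 called higher and 0 lower. Siglech, a Tyrobp-linked lectin of microglia, rose from 1.34 ± 0.694 to 5.25 ± 0.635 FPKM (log2 change 2.01, limma adjusted p = 0.0237). Clec4d, which signals through Fcer1g, rose from 0.569 ± 0.214 to 2.58 ± 0.578 FPKM (log2 change 2.03, adjusted p = 0.0187), and Clec5a, a Tyrobp-linked lectin, rose from 0.398 ± 0.293 to 2.07 ± 0.921 FPKM (adjusted p = 0.0499). Hcst rose from 0.157 ± 0.273 to 1.79 ± 1.08 FPKM (adjusted p = 0.0460), but was listed at 0 in 2 of the young samples. Its gene ends 127 bases from Tyrobp on the opposite strand. Clec4n, the receptor Dectin-2, was at 1.48 ± 0.371 and 2.36 ± 0.283 FPKM without a call. The other genes of the Trem2 family were all under 0.3 FPKM on average in both groups, and 0 of the 3 tested were called.

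Of 17 kinases, phosphatases and adaptors that act after ITAM receptors, all tested, 4 were called higher and 0 lower. Lat2, a scaffold adaptor of myeloid cells, rose from 1.33 ± 0.384 to 4.57 ± 1.04 FPKM (log2 change 1.72, limma adjusted p = 0.0186). Ptpn6, the phosphatase SHP-1 that restrains these receptors, rose from 6.77 ± 1.01 to 10.6 ± 1.49 FPKM (log2 change 0.64, adjusted p = 0.0453). The other calls were Vav1 and Card9. The kinase Syk was at 0.896 ± 0.439 and 1.21 ± 0.311 FPKM (adjusted p = 0.468), and Lyn, which phosphorylates the ITAM, was at 4.48 ± 0.514 and 7.17 ± 1.61 FPKM (adjusted p = 0.0727). Pik3cd, the leukocyte phosphoinositide 3-kinase subunit, was at 5.25 ± 0.630 and 3.77 ± 0.630 FPKM, with every old sample below every young one but no call (log2 change -0.47, limma adjusted p = 0.131). Among inhibitory receptors, 0 of 6 tested were called: Sirpa, which binds the don't-eat-me signal CD47, was at 28.2 ± 3.40 and 36.1 ± 4.15 FPKM (adjusted p = 0.105), and Cd33 was at 1.28 ± 0.385 and 2.33 ± 0.128 FPKM (adjusted p = 0.0717).

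The other genes tied to lipid-laden phagocytes numbered 22, all tested, of which 10 were called higher and 0 lower. Cst7, an inhibitor of lysosomal proteases, had the largest rise, from 0.108 ± 0.187 to 1.84 ± 0.610 FPKM (log2 change 3.54, limma adjusted p = 0.0229), and was listed at 0 in 2 of the young samples. The abundant tetraspanins rose less: Cd9 from 313 ± 29.0 to 396 ± 3.41 FPKM and Cd63 from 234 ± 26.3 to 298 ± 12.4 FPKM. Npc2, which moves cholesterol out of lysosomes, rose from 53.9 ± 4.28 to 76.8 ± 3.84 FPKM (adjusted p = 0.0183), and the scavenger receptor Msr1 rose from 1.16 ± 0.338 to 4.22 ± 2.27 FPKM (adjusted p = 0.0399). Several lipid handling genes did not pass, among them the cholesterol exporters Abca1, at 24.1 ± 2.65 and 27.2 ± 2.22 FPKM, and Abcg1, at 35.5 ± 3.19 and 32.0 ± 1.69 FPKM. The lipid droplet coat Plin2 was at 16.2 ± 0.787 and 15.8 ± 0.874 FPKM, and Spp1, osteopontin, which bone and other cells also make, was at 5353 ± 288 and 4430.2 ± 201 FPKM (adjusted p = 0.0875).

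Markers of resting microglia were taken as a contrast list. Of 8 tested, 3 were called higher and 0 lower. As background, these genes are known to fall in plaque-associated microglia of the brain. Tmem119 rose from 21.4 ± 4.81 to 38.5 ± 4.80 FPKM (limma adjusted p = 0.0310), and Siglech, given above among the partners of Tyrobp, is also on this list. Tmem119 is also known from bone-forming cells. Cx3cr1, the fractalkine receptor, was at 2.21 ± 0.416 and 3.57 ± 1.14 FPKM (adjusted p = 0.188), and P2ry12, a nucleotide receptor, was at 1.58 ± 0.376 and 2.03 ± 0.429 FPKM (adjusted p = 0.433).

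Among 11 apolipoproteins and their receptors, 10 were tested, 3 called higher and 0 lower. Clu, a chaperone that also carries lipid, rose from 975 ± 130 to 1356 ± 119.7 FPKM (log2 change 0.48, limma adjusted p = 0.0451). The Apoe receptor Lrp1 rose from 109.9 ± 5.98 to 132 ± 2.43 FPKM (adjusted p = 0.0423). Apod, the most abundant of the list, was at 10901 ± 1024 and 9417 ± 429 FPKM (adjusted p = 0.249). Apoc1, which neighbours Apoe and is co-regulated with it in macrophages, was at 6.85 ± 2.45 and 13.7 ± 6.18 FPKM without a call (adjusted p = 0.158).

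Over all 103 of these other listed genes, 94 were tested, 33 or 35.1% were called higher and 0 lower, and the median log2 change was 0.52, against 0.0088 over all genes tested. In 48 of the 94, or 51.1%, every old sample lay above every young one. The number called higher was 1 without the second old sample, 3 without the third old sample, 5 without the first old sample, 5 without the second young sample and 18 without the first young sample. The lists were chosen with results of these data known, so their direction is no independent evidence.

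**Figure D5:**
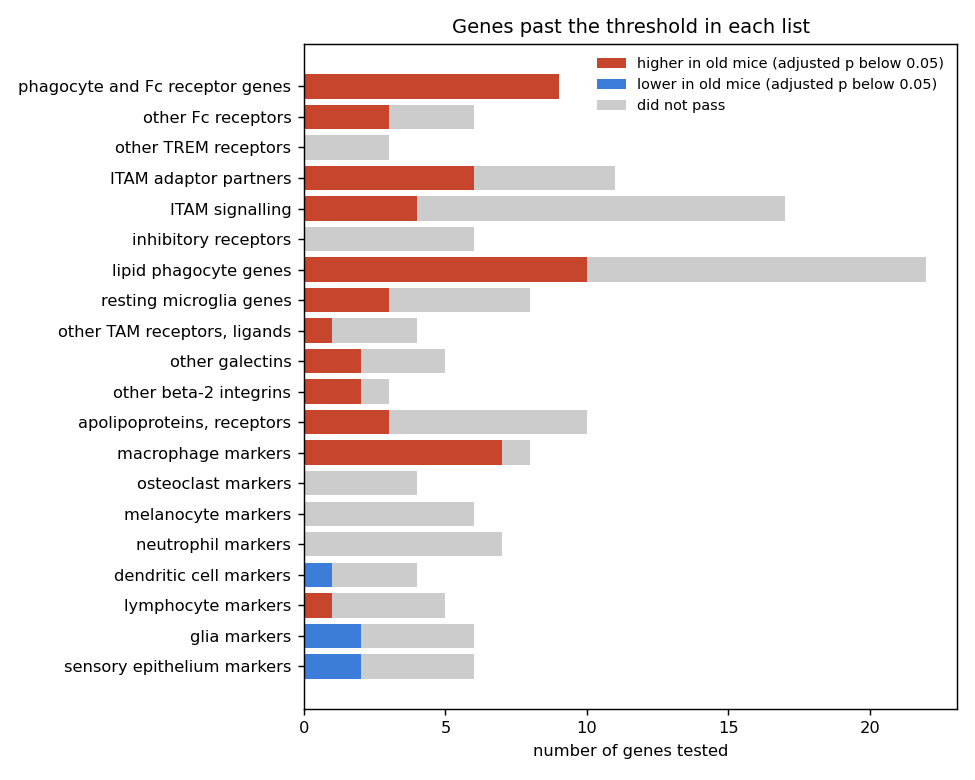
Number of tested genes in each list that were called higher, called lower or not called in old against young cochleas by limma at an adjusted p below 0.05. All 9 measured genes of the group are called higher, and 0 of the other Trem2 family and inhibitory receptor genes are.

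The pattern over the 6 samples was compared with that of every gene outside the lists with a mean of at least 1 FPKM. Each gene's log2 level was centred and scaled over the 6 samples, and the root mean square distance to the mean profile of the 9 genes was taken. Among the 9 genes Itgax was closest to their own mean, at 0.061, and Gpnmb was farthest, at 0.381. Among the closest outside the lists were Icosl, a costimulatory ligand (0.058), Ctsz, the lysosomal cathepsin Z (0.064), Snx1, a sorting nexin (0.069), and Coq2, an enzyme of coenzyme Q synthesis (0.075). The mean of Ctsz was 109 FPKM in young and 159 FPKM in old cochleas. With 6 samples in 2 groups, many genes share such a profile, and the measure was not tested.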

How the data were processed

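Cochlear basilar membranes of 1-month and 12-month C57BL/6 mice were profiled by directional RNA-seq, 3 samples per age. The authors deposited FPKM values per transcript. Per the labels, CASAVA 1.8, TopHat2 2.0.9, Cufflinks 2.1.1 and Cuffdiff 2.1.1 were used with GRCm38. No counts were used here. From the steps of low values, depth was estimated at 12410000 to 15410000 fragments per sample, with 93.9% to 94.7% of those values within 0.1 of a whole fragment. The depth was chosen to make this share as large as possible. The chance share of 20% holds for a depth fixed in advance and is not the chance level of such a search. The depth is an estimate with counting error only.

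Of 56671 transcripts, 55275 matched GENCODE M21 and were summed by gene. The authors' own 992 transcripts were each kept as a gene, and both kinds are in the 25419 genes. The other 404 Ensembl transcripts were left out of the sums. Old and young were compared with limma 3.58.1 (R 4.3.3; variance trend) on log2(FPKM + 0.1) for 19465 genes with a mean of at least 0.1 FPKM, two-sided, with Benjamini-Hochberg adjustment over all of them and a threshold of 0.05. A change on this scale understates that of low genes. The fit was tested on simulated data. Whole sequencing depth, sex and litter of the mice are not given in the sources used here. Alternatives changed the pseudocount, filter, scaling, trend, weights, transcript choice and samples.

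The genes and lists were chosen with earlier results of these data known. Named genes are all of the group, and in each list the 4 highest by mean FPKM with the called gene of largest rise or fall. Fcgr1, Syk, Vav1, Card9, Npc2, Msr1, Abca1, Abcg1, Plin2, P2ry12, Apoc1, Mrc1, Slc26a5, Calcr and Ocstamp were added for their roles after their values were seen. Some results that this rule would name are not reported here.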

Additional observations from a re-analysis of the deposited data

How the results depend on the processing

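The direction of change of each of the 9 genes was the same in every alternative run that tested it, and the count of the group called lower stayed at 0. Itgax was filtered out in the run at a mean of at least 1 FPKM. The count called higher, 9, was 3 without the variance trend, and leaving out 1 sample each gave 1 to 8. Over all genes the 1099 called higher became 284 without the trend and 46 to 949 with a sample left out, and the 741 called lower became 398 with no filter, 126 without the trend and 16 to 822 with a sample left out. Of the other listed genes, the 33 called higher became 15 with no filter, 6 without the trend, 17 with the most abundant transcript of each gene and 1 to 25 with a sample left out, and the 0 called lower became 1 at a mean of at least 1 FPKM. The 3 transcripts called higher became 6 at a mean of at least 1 FPKM and 0 to 4 with a sample left out. A left-out sample leaves fewer samples, and for the other changes the cause was not tested. The median log2 change of all genes stayed within -0.021 to 0.018 in every alternative run, with -0.021 from quantile normalization and 0.018 without the third young sample. Against the macrophage markers, Itgax turned from 1.42 to -0.27 with a pseudocount of 1 FPKM, an alternative chosen after seeing the data, as its young values are below 0.2 FPKM, and the other 8 genes moved by less than 1 SD. Depth limits Itgax most, at under 7 estimated fragments in each young sample.

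With the replicate number as a block, 5 of the group, 440 genes higher, 290 lower, 13 other listed genes and 0 transcripts of the group were called. The labels give no pairing of young with old samples, so the block has no base in them. Deviations of same-numbered samples from their group means correlated at 0.035, -0.094 and 0.041. Those of differently numbered samples correlated at -0.114 to 0.081. With 3 samples per group, these correlations cannot settle whether same-numbered samples share an effect.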
